A study of Arabidopsis thaliana with 6 samples.

Results

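The genes described here are the core of auxin signalling in Arabidopsis thaliana: 29 Aux/IAA genes, 15 auxin response factor (ARF) genes and the 4 receptor genes TIR1 and AFB1 to AFB3. They were chosen by locus identifier, and all 48 were found among the 32884 rows of the expression tables. RNA was sequenced from seeds of the accession Col-0, as 3 libraries of the wild type and 3 libraries of hda15-1, which is mutated in HDA15, a histone deacetylase gene. Both genotypes had the same treatment: dry-stored seeds took up water (1 h), were exposed to far-red light (FR; 5 min at 3.82 µmol m-2 s-1) and then stayed in darkness at 22 °C (12 h). Far-red light converts the photoreceptor phytochrome to its inactive form and so holds back germination. The question asked of each gene was whether its transcript was present in these dark-held seeds, and whether its level differed between the genotypes.

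Auxin acts by removing repressors. Aux/IAA proteins bind ARF transcription factors and recruit TOPLESS corepressors to auxin-responsive genes. Auxin joins an F-box receptor, TIR1 or an AFB, to the degron of an Aux/IAA protein, which is then ubiquitinated and destroyed, and the ARF is set free. In seeds, auxin signalling through ARF10 and ARF16 is known to maintain dormancy together with abscisic acid.

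Levels are given in FPKM (fragments per kilobase of transcript, scaled to the reads mapped in the library), which corrects for transcript length, so levels of different genes can be compared. Where 3 values are given for a genotype, they are in the order of libraries 1, 2 and 3. The FPKM of a library summed to between 879239 and 1159516, and 18902 to 19375 genes had a value above 0. Read totals are unknown. The lowest values put the weight of a single read, for a 1 kb transcript, at 0.0905 to 0.121 FPKM depending on the library. Levels well under 1 FPKM therefore rest on a handful of reads. Of 12 seed marker genes, chiefly storage proteins and oleosins, 10 were above 1 FPKM in every library. The storage protein gene CRC (AT4G28520) was not, and was listed at 0 in at least 1 library, though not in all. The summed level of the 12 lay between 77463 and 96991 FPKM among wild-type libraries and between 76842 and 117289 FPKM among hda15-1 libraries. Of the 6 leaf markers only 2 were above 1 FPKM in every library, and the median over the 6 was 0.724 FPKM. The 6 leaf markers summed to 353 to 460 FPKM among wild-type libraries and to 449 to 621 FPKM among hda15-1 libraries. The 3 seed coat markers stayed at or below 0.0592 FPKM. HDA15 (AT3G18520) gave 16.1, 13.0 and 14.8 FPKM in the 3 wild-type libraries and 0.338, 0.651 and 0.417 FPKM in the 3 of hda15-1. Its level was low in every library labelled hda15-1 (log2 fold change -3.41 ± 0.18 SE, adjusted p = 3.79e-04, limma).

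A gene was called present in a genotype if it reached 1 FPKM in every library of that genotype. By this rule 29 of the 48 genes were present in both genotypes, ARF5 and ARF11 were present in wild type only, 14 genes gave traces and 3 were listed at 0 in all 6 libraries. Among the genes chosen, 12 of 29 Aux/IAA genes were present in both genotypes, as were 13 of 15 ARF genes and all 4 receptors. All 15 ARF genes were present in wild type. The choice left out 8 further ARF genes, which were listed at 0 in all 6 libraries, so these counts do not compare whole families. Without hda15-1 3, the number present in hda15-1 was 30. In whole seeds, fewer cells of a type and less RNA per cell cannot be told apart.

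None of the 31 genes that could be tested passed the test for a difference between the genotypes. The test was limma on log2(FPKM + 1) over all 15045 genes that averaged 1 FPKM or more, and it called 33 of those genes, or 0.219%, at an adjusted p under 0.05. No auxin signalling gene passed, and none had an unadjusted p under 0.05, as 644 of all genes tested did. Of the 31 log2 fold changes, 16 were above 0 and 15 below, with a median of 0.01, beside a median of 0.02 over all genes tested. Scaling every library to a common upper quartile took both medians below 0, to -0.03 and -0.02. On the log2(FPKM + 1) scale, the 95% interval of the difference lay within a 2-fold change in either direction for 30 of the 31 genes. IAA4 was the exception, and the share over all genes tested was 86.6%. With 0.5 or 0.1 added to FPKM instead of 1, the interval lay within that limit for 28 or 26 of the 31 genes. The log2(FPKM + 1) scale understates changes of low genes, and on it the standard errors ran from 0.16 to 0.35. Wild type and hda15-1 levels did not overlap for 1 of the 31 genes, IAA4, against 9.21% of all genes tested. All p-values measure the spread between these libraries, which may be technical, since the labels do not tell whether they came from separate seed lots.

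**Figure D1:**
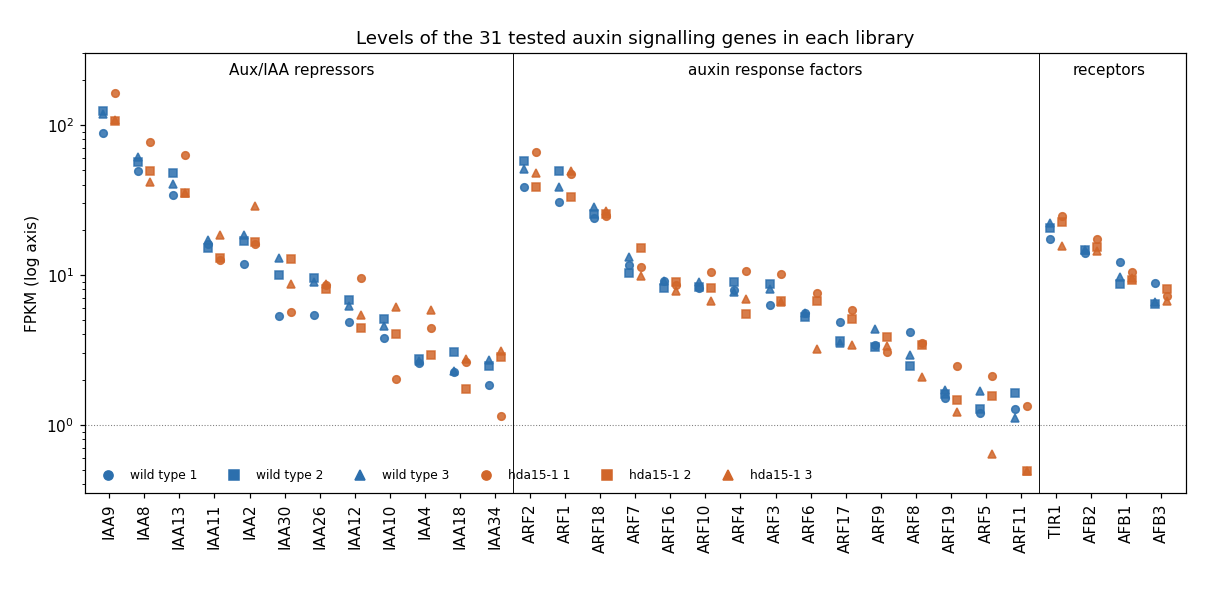
FPKM, on a log axis, of the 31 tested Aux/IAA, ARF and receptor genes in each of the 6 libraries, ordered by wild-type level within each family; each point is 1 library and the dotted line marks 1 FPKM. Blue (wild type) and orange (hda15-1) points overlap for every gene except IAA4.

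Among the Aux/IAA repressors, IAA9, IAA8 and IAA13 carried most of the transcript. IAA9 (AT5G65670), a repressor whose tomato counterpart restrains fruit set, had 88.0, 124.6 and 119.0 FPKM in the wild-type libraries, compared with 163.3, 105.9 and 107.4 FPKM in hda15-1 seeds. Its mean was 110.5 ± 19.7 FPKM (SD, n = 3) in wild type, above 92.1% of the genes tested, and 125.5 ± 32.7 FPKM (SD, n = 3) in hda15-1. The lowest and the highest value both came from libraries numbered 1, and the other 4 lay between them (log2 fold change 0.17 ± 0.24 SE, adjusted p = 1.00, limma). Without hda15-1 1 the log2 fold change of IAA9 was -0.04.

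IAA8 (AT2G22670), the closest relative of IAA9 in the family tree, measured 49.2, 57.0 and 61.0 FPKM in the wild-type libraries, against 77.2, 49.0 and 41.5 FPKM in those of hda15-1. Both the highest and the lowest value were hda15-1 libraries, so the groups overlapped fully. IAA13 (AT2G33310), a paralog of the embryo patterning repressor IAA12, gave 33.9, 47.6 and 40.2 FPKM in the 3 wild-type libraries and 62.6, 35.1 and 35.1 FPKM in the 3 of hda15-1. Here too hda15-1 1 stood above the other 5 libraries. IAA13 overlaps AT2G33300 on the other strand, with 784 bases in exons of both. That gene was listed at 0 in all 6 libraries, though a 0 can also be a failed estimate. Whether the counting used strand is not given in the sources used here, so the level of IAA13 is uncertain if strand was not used.

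The degron of these repressors is the segment that the receptor reads, and its core is glycine-tryptophan-proline-proline. The coding sequences around that core are shown for the 3 most abundant repressors and for IAA2 and IAA4, which had the largest positive differences. Capitals mark the 4 codons of the core, and 15 bases are given on each side. All 5 stretches are joined across an intron in TAIR10.1. They lie at chr5:26255003-26255139 (plus strand, IAA9), chr2:9637622-9637760 (plus strand, IAA8), chr2:14115227-14115538 (minus strand, IAA13), chr3:8181381-8181514 (minus strand, IAA2) and chr5:17550642-17550775 (plus strand, IAA4).
IAA9: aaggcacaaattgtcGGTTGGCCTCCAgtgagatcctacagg
IAA8: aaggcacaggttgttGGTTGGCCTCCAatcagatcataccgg
IAA13: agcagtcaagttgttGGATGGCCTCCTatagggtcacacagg
IAA2: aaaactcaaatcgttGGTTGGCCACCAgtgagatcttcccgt
IAA4: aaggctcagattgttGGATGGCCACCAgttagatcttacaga

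The core was found in the predicted protein of 23 of the 29 Aux/IAA genes and in 34 of 27444 predicted proteins, or 0.124%. The 6 without it were IAA20, IAA30, IAA31, IAA32, IAA33 and IAA34. Of the 23 genes with a core 10 were present in both genotypes, and of the 6 without it IAA30 and IAA34 were. The EAR motif, which binds TOPLESS and was searched as leucine-any-leucine-any-leucine, was found in 28 of 29 Aux/IAA proteins, all but IAA33, in 3 of 15 ARF proteins and in 27.1% of all predicted proteins.

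IAA11 and IAA2 formed the next tier. IAA11 (AT4G28640) had 15.9, 15.2 and 17.1 FPKM in the wild-type libraries, compared with 12.6, 13.0 and 18.4 FPKM in hda15-1 seeds. The highest library was hda15-1 3 and the 2 lowest were the other hda15-1 libraries (log2 fold change -0.14 ± 0.19 SE, adjusted p = 1.00, limma). IAA2 (AT3G23030), a gene known for its rapid induction by auxin, measured 11.8, 16.7 and 18.5 FPKM in the wild-type libraries, against 16.0, 16.4 and 28.6 FPKM in those of hda15-1. Only hda15-1 3 lay above the wild-type range (log2 fold change 0.33 ± 0.27 SE, 95% interval -0.29 to 0.94, adjusted p = 1.00, limma).

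The degron-less repressor IAA30 (AT3G62100) gave 5.27, 9.91 and 12.9 FPKM in the 3 wild-type libraries and 5.69, 12.8 and 8.72 FPKM in the 3 of hda15-1. Its lowest values were those of the 2 libraries numbered 1. IAA26 (AT3G16500) had 5.36, 9.46 and 8.97 FPKM in the wild-type libraries, compared with 8.52, 8.10 and 8.67 FPKM in hda15-1 seeds. Only wild type 1 fell outside a band from 8.10 to 9.46 FPKM. IAA12 (AT1G04550), or BODENLOS, which blocks ARF5 during root formation in the embryo, measured 4.86, 6.79 and 6.20 FPKM in the wild-type libraries, against 9.57, 4.41 and 5.43 FPKM in those of hda15-1. The hda15-1 libraries again held both ends of the range.

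IAA10 (AT1G04100) gave 3.76, 5.06 and 4.59 FPKM in the 3 wild-type libraries and 2.02, 4.02 and 6.13 FPKM in the 3 of hda15-1. The spread within hda15-1 was 3.04-fold and enclosed all wild-type values (log2 fold change -0.19 ± 0.31 SE, adjusted p = 1.00, limma). Without hda15-1 1 the log2 fold change of IAA10 was 0.14. IAA10 overlaps AT1G04105 on the other strand, with 361 bases in exons of both, a gene at 1.42 to 3.99 FPKM, and reads of the pair cannot be told apart if strand was not used. IAA18 (AT1G51950) had 2.25, 3.06 and 2.27 FPKM in the wild-type libraries, compared with 2.63, 1.73 and 2.74 FPKM in hda15-1 seeds. IAA34 (AT1G15050), the second present repressor with no degron core, measured 1.83, 2.47 and 2.69 FPKM in the wild-type libraries, against 1.15, 2.82 and 3.09 FPKM in those of hda15-1. Groups overlapped for both genes, and hda15-1 1 had the lowest level of IAA34.

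IAA4 (AT5G43700), another rapidly auxin-induced repressor gene, had the smallest unadjusted p of the 31 genes. It gave 2.58, 2.75 and 2.68 FPKM in the 3 wild-type libraries and 4.43, 2.90 and 5.80 FPKM in the 3 of hda15-1. The 3 wild-type libraries were close together, and hda15-1 2 lay just above them while the other hda15-1 libraries were higher. The log2 fold change of IAA4 was 0.52 ± 0.23 SE with a 95% interval of -0.01 to 1.04 (unadjusted p = 0.0531, adjusted p = 1.00, limma). Without hda15-1 2 it was 0.73 and without hda15-1 3 it was 0.33. IAA4 shares 36-base stretches with its paralog IAA3 over 0.530% of its transcript, and IAA3 was given at 0.152 FPKM at most.

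The remaining 17 Aux/IAA genes were below a mean of 1 FPKM over the 6 libraries and were not tested. They include several repressors known from dominant mutants with strong seedling phenotypes: IAA3 (SHY2), IAA7 (AXR2), IAA14 (SLR), IAA17 (AXR3), IAA19 (MSG2) and IAA28. IAA3 was listed at 0 in 4 libraries and reached 0.152 FPKM at most. It overlaps AT1G04230 on the other strand, a gene at 10.7 to 18.1 FPKM, with 536 bases in exons of both. The level of IAA3 is thus uncertain if strand was not used. IAA7 did not exceed 0.183 FPKM, IAA14 0.0806 FPKM, IAA17 0.0630 FPKM and IAA19 0.163 FPKM. IAA28 reached 0.598 FPKM in hda15-1 1 and stayed at or below 0.168 FPKM elsewhere. The highest values of the remaining genes IAA1, IAA32, IAA15 and IAA29 were 0.590, 0.273, 0.117 and 0.0992 FPKM. IAA32 also overlaps a gene on the other strand, AT2G01210 at 0.335 to 0.475 FPKM, with 826 bases in exons of both. IAA5, IAA6 and IAA31 were listed at 0 in every library, and an exact 0 in such tables can also be a failed estimate.

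The highest traces were those of IAA27, IAA20, IAA16 and IAA33. IAA27 (AT4G29080), related to IAA8 and IAA9, had 0.755, 0.550 and 0.818 FPKM in the wild-type libraries, compared with 1.85, 0.875 and 0.410 FPKM in hda15-1 seeds. It thus passed 1 FPKM in 1 library only. IAA20 (AT2G46990) measured 0.811, 0.186 and 0.491 FPKM in the wild-type libraries, against 0.791, 0.660 and 1.15 FPKM in those of hda15-1. IAA33 (AT5G57420) gave 0.137, 0.107 and 0.347 FPKM in the 3 wild-type libraries and 0.115, 0.828 and 0.886 FPKM in the 3 of hda15-1. The groups overlapped for these 3 genes. IAA16 (AT3G04730) had 0.558, 0.102 and 0.154 FPKM in the wild-type libraries, compared with 1.05, 0.787 and 0.544 FPKM in hda15-1 seeds. Wild type 1 and hda15-1 3 met in the middle of that range, and the values of IAA16 stood for about 2.3 to 22.6 reads per library.

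**Figure D2:**
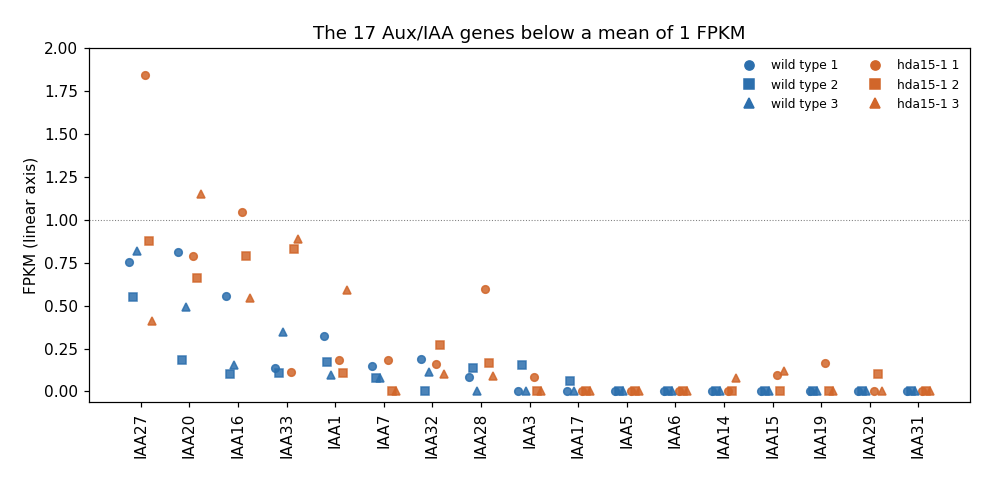
FPKM, on a linear axis, of the 17 Aux/IAA genes below a mean of 1 FPKM in each of the 6 libraries; each point is 1 library and the dotted line marks 1 FPKM. IAA27, IAA20 and IAA16 pass 1 FPKM in 1 hda15-1 library each, and IAA5, IAA6 and IAA31 lie at 0 throughout.

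Summed over the family, Aux/IAA transcripts amounted to 227.8, 302.2 and 298.1 FPKM in the wild-type libraries and to 371.0, 260.1 and 275.5 FPKM in the hda15-1 libraries. The highest and the lowest sum were again the libraries numbered 1. IAA9, IAA8 and IAA13 made up 74.9 ± 1.01% of the sum in wild type and 73.8 ± 7.50% in hda15-1 (SD, n = 3 each), with a range of 66.8 to 81.7% among the hda15-1 libraries. Repressors with no degron core made up 4.45 ± 0.988% in wild type and 4.63 ± 2.31% in hda15-1 (SD, n = 3 each). Both shares differed between the genotypes by less than the SD among the hda15-1 libraries.

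The auxin response element TGTCTC, to which ARF proteins bind, was searched on both strands from 250 bases before to 50 bases after each annotated gene start. It was in 12 of 29 Aux/IAA promoters (41.4%) and in 14.2% of 27443 promoters of protein-coding genes. Of the 12 Aux/IAA genes with the element, IAA8, IAA30 and IAA34 were present, and of the 17 without it 9 were present. The G-box CACGTG, a core that PIF factors can bind, was in 5 Aux/IAA promoters (17.2%) and in 7.68% of all. These were IAA7, IAA14, IAA19, IAA20 and IAA30, of which IAA30 was present. Among ARF promoters TGTCTC was found in that of ARF3, and CACGTG in none of these windows. The 4 receptor promoters held neither.

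All 15 ARF genes were tested. ARF proteins fall into class A, whose glutamine-rich middle region activates transcription, and classes B and C, which mostly repress. In the predicted proteins glutamine made up 15.3% of ARF7, 12.5% of ARF19, 10.4% of ARF6, 8.75% of ARF8 and 6.98% of ARF5, which are class A. Among the class B and C proteins the highest share was 5.98%, in ARF18.

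Class B held most of the ARF transcript. ARF2 (AT5G62000), a repressor known to limit seed size, measured 38.6, 57.7 and 51.2 FPKM in the wild-type libraries, against 66.0, 38.7 and 48.1 FPKM in those of hda15-1. ARF1 (AT1G59750), its partner in senescence and flower shedding, gave 30.6, 49.2 and 38.8 FPKM in the 3 wild-type libraries and 47.1, 33.1 and 49.6 FPKM in the 3 of hda15-1. For both genes wild type 1 was lowest and an hda15-1 library was highest. ARF18 (AT3G61830) was the steadiest of the 3, with 24.1, 25.3 and 28.5 FPKM in the wild-type libraries and 24.7, 25.5 and 26.6 FPKM in the hda15-1 libraries. Its highest and lowest library differed 1.18-fold.

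ARF4 (AT5G60450) and ARF3 (AT2G33860), which together set organ polarity and are known targets of small RNAs from the TAS3 transcripts, were lower. ARF4 had 7.88, 8.95 and 7.70 FPKM in the wild-type libraries, compared with 10.6, 5.47 and 6.93 FPKM in hda15-1 seeds. ARF3 measured 6.32, 8.71 and 8.02 FPKM in the wild-type libraries, against 10.2, 6.72 and 6.60 FPKM in those of hda15-1. Both were highest in hda15-1 1, and their groups overlapped. The precursor TAS3A (AT3G17185) gave 13.4, 16.9 and 14.7 FPKM in the 3 wild-type libraries and 9.28, 12.9 and 16.5 FPKM in the 3 of hda15-1, also overlapping.

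ARF9 (AT4G23980) had 3.38, 3.28 and 4.36 FPKM in the wild-type libraries, compared with 3.06, 3.86 and 3.36 FPKM in hda15-1 seeds. ARF11 (AT2G46530) was near the presence limit, with 1.28, 1.62 and 1.11 FPKM in the wild-type libraries and 1.32, 0.490 and 0.490 FPKM in the hda15-1 libraries. Its hda15-1 1 value lay within the wild-type range, whereas hda15-1 2 and 3 were below it. ARF11 had the largest negative difference of the 31 genes (log2 fold change -0.43 ± 0.24 SE, 95% interval -0.98 to 0.13, unadjusted p = 0.113, adjusted p = 1.00, limma). It met the filter mean of 1 FPKM only through the wild-type libraries (mean 1.33 FPKM, against 0.768 FPKM in hda15-1), which favoured a negative sign. Without wild type 2 or without hda15-1 1 it fell below the filter and was not tested.

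The class A activators were less abundant. ARF7 (AT5G20730), which drives lateral root formation with ARF19, measured 11.6, 10.3 and 13.2 FPKM in the wild-type libraries, against 11.3, 15.1 and 9.82 FPKM in those of hda15-1. It overlaps AT5G20720, a gene at 314 to 537 FPKM on the other strand, with 70 bases in exons of both, so its level is uncertain if strand was not used. ARF19 (AT1G19220) gave 1.50, 1.61 and 1.69 FPKM in the 3 wild-type libraries and 2.48, 1.47 and 1.22 FPKM in the 3 of hda15-1. ARF5 (AT1G19850), or MONOPTEROS, the factor that IAA12 blocks, had 1.19, 1.26 and 1.68 FPKM in the wild-type libraries, compared with 2.101, 1.55 and 0.639 FPKM in hda15-1 seeds. Both spanned the wild-type range in hda15-1, and the call that ARF5 was present in wild type only rested on hda15-1 3.

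ARF6 and ARF8, which act together in flower maturation, are known targets of miR167. ARF6 (AT1G30330) measured 5.60, 5.21 and 5.56 FPKM in the wild-type libraries, against 7.57, 6.69 and 3.18 FPKM in those of hda15-1. ARF8 (AT5G37020) gave 4.17, 2.46 and 2.92 FPKM in the 3 wild-type libraries and 3.52, 3.38 and 2.07 FPKM in the 3 of hda15-1. Each had its lowest value in hda15-1 3.

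Class C consists of ARF10, ARF16 and ARF17, which are known targets of miR160. ARF16 (AT4G30080) had 9.08, 8.17 and 9.07 FPKM in the wild-type libraries, compared with 8.53, 8.91 and 7.75 FPKM in hda15-1 seeds. ARF10 (AT2G28350) measured 8.11, 8.24 and 8.98 FPKM in the wild-type libraries, against 10.4, 8.22 and 6.70 FPKM in those of hda15-1. The pair that acts in seed dormancy was thus present in every library, and its highest and lowest values differed 1.17-fold for ARF16 and 1.56-fold for ARF10. ARF17 (AT1G77850) gave 4.88, 3.59 and 3.53 FPKM in the 3 wild-type libraries and 5.84, 5.06 and 3.398 FPKM in the 3 of hda15-1. Its groups overlapped, with hda15-1 3 lowest (log2 fold change 0.19 ± 0.22 SE, 95% interval -0.32 to 0.70, adjusted p = 1.00, limma).

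Stretches complementary to 3 small RNAs were found in 5 of the ARF genes and all 4 receptors, and both are shown here. Whether these sites act in the seeds was not tested. The mature miRNAs were read from TAIR10.1 at chr2:16340282-16340302 (miR160a-5p), chr3:8108090-8108110 (miR167a-5p) and chr2:16652111-16652132 (miR393a-5p), all on the plus strand. They are written in DNA letters, with capitals marking bases 2 to 8.
miR160a-5p: tGCCTGGCtccctgtatgcca
miR167a-5p: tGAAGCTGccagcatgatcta
miR393a-5p: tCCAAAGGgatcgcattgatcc

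The ARF sites lie in coding sequence, at chr1:29274189-29274209 (plus strand, ARF17), chr2:12115741-12115761 (plus strand, ARF10), chr4:14704141-14704161 (minus strand, ARF16), chr1:10686478-10686498 (minus strand, ARF6) and chr5:14633841-14633861 (plus strand, ARF8). Capitals mark bases complementary to the miRNA.
ARF17 site for miR160a-5p: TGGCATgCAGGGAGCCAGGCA
ARF10 site for miR160a-5p: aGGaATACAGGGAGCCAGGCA
ARF16 site for miR160a-5p: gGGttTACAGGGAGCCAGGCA
ARF6 site for miR167a-5p: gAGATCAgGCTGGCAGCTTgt
ARF8 site for miR167a-5p: TAGATCAgGCTGGCAGCTTgt

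The miR160a-5p sites were complementary at 20 of 21 bases in ARF17, 19 in ARF10 and 18 in ARF16. The miR167a-5p sites were complementary at 18 bases in ARF8 and 17 in ARF6. G-U wobble pairs, of which the ARF17 and ARF16 sites hold 1 each, are not counted as complementary. With at most 4 bases not complementary, 3 of 27444 transcripts held a miR160a-5p site, all of them class C genes, and 7 held a miR167a-5p site. The 9 annotated MIR160, MIR167 and MIR393 precursor genes were listed at 0 in every library. The libraries were made from messenger RNA and do not measure mature miRNAs.

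By class, ARF transcripts summed to 112.2, 154.9 and 139.7 FPKM for class B in the wild-type libraries and to 163.0, 113.8 and 141.6 FPKM in the hda15-1 libraries. Class A summed to 24.1, 20.8 and 25.0 FPKM in the wild-type libraries and to 27.0, 28.2 and 16.9 FPKM in the hda15-1 libraries. Class C summed to 22.1, 20.0 and 21.6 FPKM in the wild-type libraries and to 24.8, 22.2 and 17.9 FPKM in the hda15-1 libraries. The ratio of class B to class A was 5.90 ± 1.42 in wild type and 6.15 ± 2.17 in hda15-1 (SD, n = 3 each), a difference smaller than the spread. In hda15-1 3 the level of each of the 8 class A and class C genes was the lowest of the 6 libraries. That library also had the highest FPKM sum and the fewest genes above 0, and the part of these properties in its ARF levels was not tested.

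The 4 receptors were all present, with wild-type means from 7.26 ± 1.35 FPKM (SD, n = 3) for AFB3 to 20.0 ± 2.46 FPKM (SD, n = 3) for TIR1. TIR1 (AT3G62980), the first auxin receptor to be identified, had 17.3, 20.6 and 22.1 FPKM in the wild-type libraries, compared with 24.6, 22.5 and 15.6 FPKM in hda15-1 seeds. AFB2 (AT3G26810) measured 14.1, 14.6 and 14.7 FPKM in the wild-type libraries, against 17.4, 15.3 and 14.4 FPKM in those of hda15-1. The hda15-1 libraries held both ends of the TIR1 range, while for AFB2 only hda15-1 3 fell among the wild-type values (AFB2 log2 fold change 0.11 ± 0.16 SE, 95% interval -0.25 to 0.48, adjusted p = 1.00, limma).

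AFB1 (AT4G03190), a receptor with a part in rapid root responses, gave 12.3, 8.65 and 9.63 FPKM in the 3 wild-type libraries and 10.4, 9.21 and 9.49 FPKM in the 3 of hda15-1. AFB3 (AT1G12820) had 8.82, 6.35 and 6.60 FPKM in the wild-type libraries, compared with 7.24, 8.08 and 6.66 FPKM in hda15-1 seeds. For both, all hda15-1 values fell within the wild-type range. Both overlap genes on the other strand, so their levels too are uncertain if strand was not used. AFB1 shares 51 bases of exon with AT4G03180, at 36.2 to 51.0 FPKM, and 423 with the noncoding AT4G04455, at 14.97 to 30.97 FPKM. AFB3 shares 63 bases with AT1G12810, at 80.0 to 98.5 FPKM, and 638 with the noncoding AT1G04977, at 14.03 to 32.3 FPKM. The summed receptor level was 51.9 ± 1.53 FPKM for wild type and 53.6 ± 6.83 FPKM for hda15-1 (SD, n = 3 each).

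The miR393a-5p sites of the receptors also lie in coding sequence, at chr1:4369085-4369106 (minus strand, AFB3), chr3:9870237-9870258 (plus strand, AFB2), chr3:23273727-23273748 (minus strand, TIR1) and chr4:1405341-1405362 (minus strand, AFB1). Capitals again mark complementary bases.
AFB3 site for miR393a-5p: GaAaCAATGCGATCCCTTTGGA
AFB2 site for miR393a-5p: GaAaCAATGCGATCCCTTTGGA
TIR1 site for miR393a-5p: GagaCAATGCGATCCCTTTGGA
AFB1 site for miR393a-5p: GagaCcATGCGATCCCTTTGGA
AFB3 and AFB2 share the same 22 bases, of which 20 are complementary to the miRNA. The TIR1 site is complementary at 19 bases and the AFB1 site at 18, each with 1 G-U wobble pair besides. With at most 4 bases not complementary, 7 of 27444 transcripts held such a site.

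**Figure D3:**
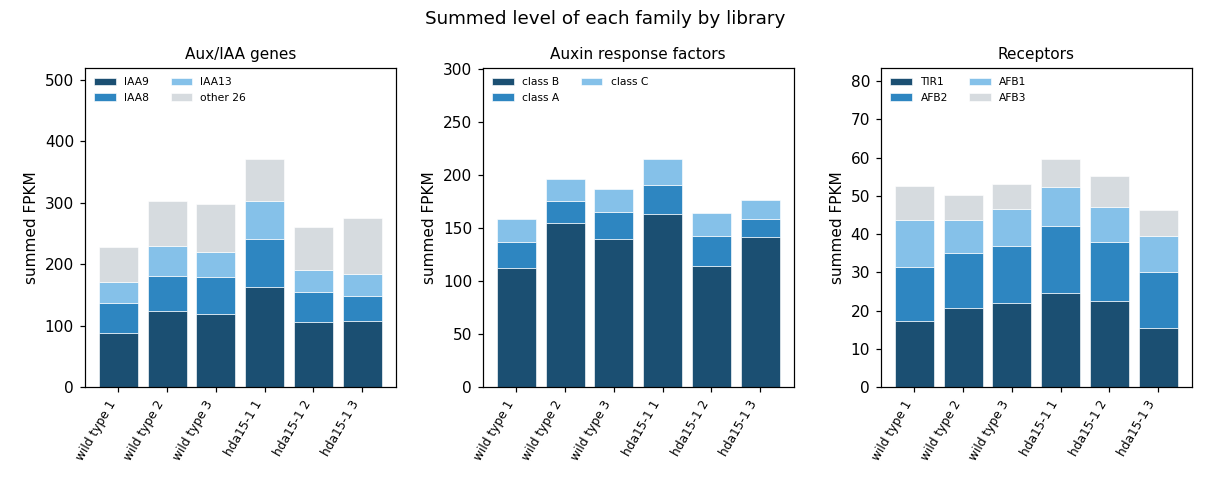
Summed FPKM, on linear axes from 0, of the Aux/IAA, ARF and receptor genes in each of the 6 libraries, 1 stacked bar per library. Segments are IAA9, IAA8, IAA13 and the other 26 Aux/IAA genes, the 3 ARF classes, and the 4 receptors; hda15-1 1 has the tallest bar in each panel, and IAA9, IAA8 and IAA13 take 66.8 to 81.7% of the Aux/IAA bar in the hda15-1 libraries.

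The 31 tested genes moved unevenly across libraries. Of them 14, or 45.2%, had their highest level in hda15-1 1, as did 24.8% of all genes tested. Lowest levels fell in wild type 1 for 11 genes and in hda15-1 3 for 11 genes (35.5% each), against 19.8% and 20.1% of all genes tested. Genes of the same libraries are not independent, so no test is given for these shares. Among the 4 libraries numbered 2 and 3, a choice made after the data were seen, the median log2 fold change of the members was -0.10, while that of all genes tested was 0.04, and again no member passed limma.

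**Figure D4:**
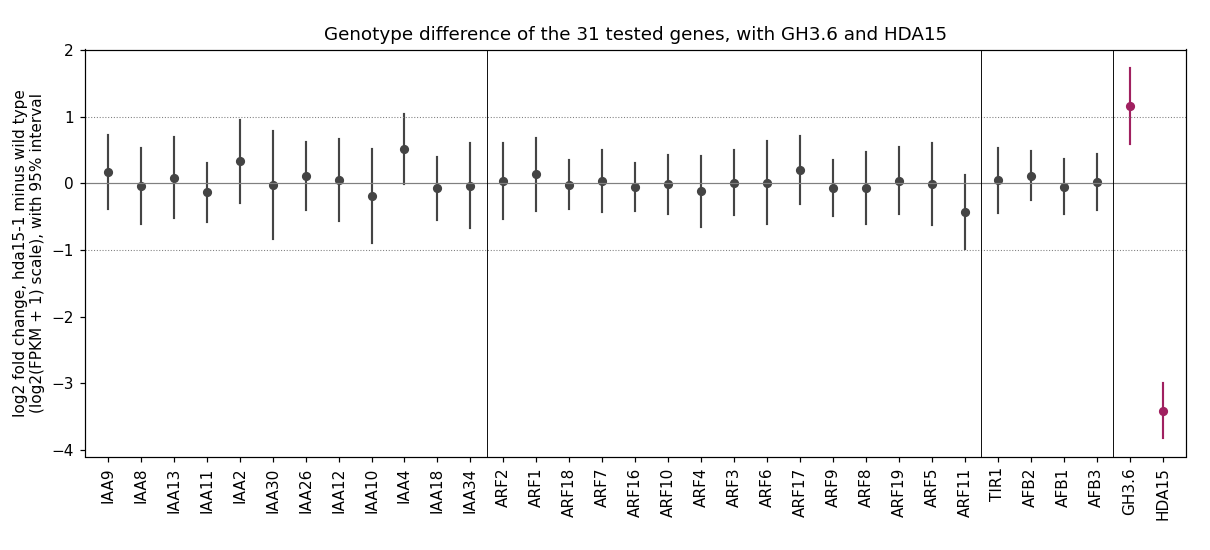
Log2 fold change (hda15-1 minus wild type, log2(FPKM + 1) scale) of the 31 tested genes, with GH3.6 and HDA15 at the right; points are limma estimates and bars their 95% intervals, unadjusted, from 3 libraries per genotype. All bars of the 31 genes cross 0, and on this scale that of IAA4 alone passes a 2-fold change (dotted lines).

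Other genes of the pathway were read from the same test. The receptors AFB4 and AFB5 were both tested, and AFB5 measured 12.9, 15.2 and 16.1 FPKM in the wild-type libraries, against 23.2, 15.8 and 15.2 FPKM in those of hda15-1. All 9 genes of the SCF ubiquitin ligase and its regulators were tested, led by the adaptor ASK1 with 849.6, 687.2 and 641.4 FPKM in the wild-type libraries and 575.9, 800.5 and 1041 FPKM in the hda15-1 libraries. Of the 5 TOPLESS corepressor genes, TPR1 (AT1G80490) gave 27.0, 28.4 and 27.1 FPKM in the 3 wild-type libraries and 34.1, 31.6 and 29.0 FPKM in the 3 of hda15-1, without overlap. None of these 16 genes passed the test. The median log2 fold change was 0.12 for the SCF list and 0.01 for the TOPLESS list. A further 8 ARF genes, ARF12 to ARF15 and ARF20 to ARF23, were listed at 0 in all libraries.

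Genes of auxin metabolism and response were mostly listed at 0 or did not pass. Of 14 synthesis genes only TAA1 and TAR2 were tested, 8 were listed at 0 in all libraries, and none passed. YUC4 (AT5G11320), named after its values were seen, was 1 of 4 untested synthesis genes with a value and reached 0.367 FPKM at most. For YUC4 every hda15-1 library lay above every wild-type library, as for 5.96% of all untested genes with a value. The regulators LBD16, LBD18 and HAT2, known ARF targets, were tested and none passed. Of 79 SAUR genes, small auxin-induced growth genes, 46 were listed at 0 in all libraries and 15 were tested. None of the 15 passed, 11 had a log2 fold change above 0, as did 54.4% of all genes tested, and the median was 0.27. SAUR78 (AT1G72430), which had the smallest p among them, had 7.90, 4.99 and 7.93 FPKM in the wild-type libraries, compared with 13.7, 9.43 and 11.2 FPKM in hda15-1 seeds without overlap (unadjusted p = 0.0189, adjusted p = 0.936, limma). SAUR49 and SAUR50, counted among the 11 above 0, averaged 0.882 and 0.599 FPKM in wild type. They reached the filter mean of 1 FPKM only through the hda15-1 libraries (means of 1.60 and 1.50 FPKM), so the filter favoured their sign. A further 18 SAUR genes had a value above 0 in some library but averaged under 1 FPKM and were not tested. In 6 of them, named here after their values were seen, every hda15-1 library lay above every wild-type library, as did 5.96% of all untested genes with a value. These were SAUR3, SAUR4, SAUR5, SAUR8, SAUR37 and SAUR51, at 0.541 FPKM or less in wild type, and SAUR3 and SAUR4 were listed at 0 there. SAUR5 (AT4G34810) was the highest of them, with 0.219, 0 and 0 FPKM in the wild-type libraries and 1.66, 2.56 and 1.196 FPKM in the hda15-1 libraries.

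GH3 enzymes join auxin to amino acids and so lower free auxin. Of 8 GH3 genes 4 were tested and none passed. All 4 log2 fold changes were above 0, as were 54.4% of those of all genes tested, and their median was 0.24. GH3.6 (AT5G54510) measured 0.270, 0.545 and 0.493 FPKM in the wild-type libraries, against 3.36, 1.97 and 1.51 FPKM in those of hda15-1. Every hda15-1 library lay above every wild-type library. GH3.6 reached the filter mean of 1 FPKM only through the hda15-1 libraries (mean 2.28 FPKM, against 0.436 FPKM in wild type). The filter thus favoured a positive sign for GH3.6. Its log2 fold change was 1.16 ± 0.25 SE, with an unadjusted p of 0.00157 and an adjusted p of 0.264 in limma. GH3.5 (AT4G27260) gave 7.95, 6.03 and 6.99 FPKM in the 3 wild-type libraries and 11.2, 8.32 and 8.06 FPKM in the 3 of hda15-1, also without overlap (unadjusted p = 0.107, adjusted p = 1.00, limma).

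**Figure D5:**
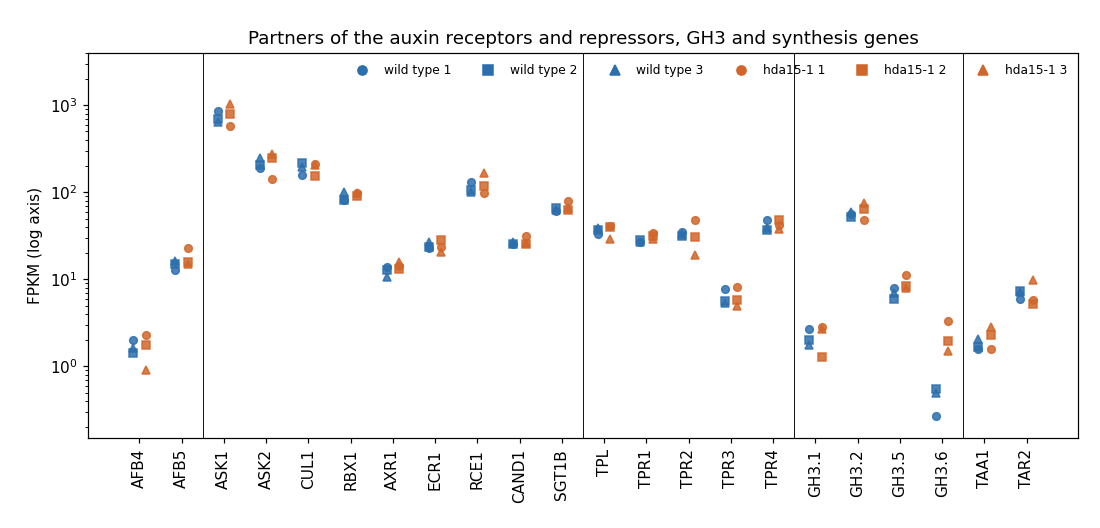
FPKM, on a log axis, of the other receptors, the SCF genes, the TOPLESS genes, and the tested GH3 and synthesis genes in each of the 6 libraries; each point is 1 library. GH3.6 shows the widest gap between genotypes among the genes plotted, from 0.545 FPKM at most in wild type to 1.51 FPKM at least in hda15-1.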

How the data were processed

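Values are FPKM as the authors deposited them, in a separate table for each library, per the file headers. Tools listed in the submitters' processing notes are Cufflinks, Cuffdiff and Bowtie 0.12.2, with TAIR10 as the build. No source used here gives their settings, the annotation version or whether strand was used. FPKM carries no read totals, so precision is given only as the spread between libraries.

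The 48 loci were matched by identifier, and symbols, positions and sequences came from RefSeq's TAIR10.1. Members and gene lists were chosen with earlier results of these data known. Limma 3.58.1 (R 4.3.3) was fitted to log2(FPKM + 1) with an empirical Bayes trend and genotype as the only term, for genes averaging 1 FPKM or more over the 6 libraries. Tests were two-sided, with Benjamini-Hochberg adjustment over all 15045 genes and a threshold of 0.05. The fit was also run on simulated data with independent values, which held no shifts shared by the genes of a library and so cannot speak to such shifts. For a single gene, 3 libraries against 3 cannot give an exact permutation p below 0.1.

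Fold changes are named for the members with the 6 smallest p or the 6 largest changes, and lists are represented by up to 3 tested genes with the smallest p; ASK1 was named outside that rule for its level. SAUR genes were taken by annotated name, leaving out AT5G01830, annotated as an ARM repeat protein. Alternatives covered the pseudocount, filter, scaling, variance trend, leaving out each library, a replicate block and other limits for presence. Motifs and miRNA sites were searched in the longest coding sequence or transcript of each gene. No protein sequence is printed.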

Additional observations from a re-analysis of the deposited data

How the results depend on the processing

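No auxin signalling gene passed limma under any of 16 alternatives, and the lowest adjusted p of a member was 0.355, for IAA8 without the 2 libraries numbered 1, a choice made after the data were seen. That setting gave a members' median log2 fold change of -0.10, 73 higher and 12 lower genes among all tested, and values of -0.19 for IAA9 and 0.041 for IAA10. Leaving out 1 library at a time moved the higher genes between 8 (without hda15-1 2) and 31, the lower genes between 3 and 5 (without wild type 1), IAA9 between -0.035 and 0.27 and IAA10 between -0.48 and 0.14, with both signs turning without hda15-1 1. A mean of at least 5 FPKM gave 13 higher genes. The replicate block also gave 13 higher and 3 lower genes and no member. Deviations of same-numbered libraries correlated at -0.079, -0.114 and -0.162. The labels do not state whether the numbers pair the samples, and these correlations cannot settle it. With no filter on the mean, all genes above 0 in some library were tested, and 1 other pathway gene passed, SAUR4 (adjusted p = 0.0191, limma). It was listed at 0 in every wild-type library, with 0.932, 0.760 and 0.755 FPKM in the mutant libraries. SAUR4 thus entered that fit only through the hda15-1 libraries, which fixed its sign, and its wild-type values had no spread. Its pass is therefore no support for a difference. GH3.6 was not tested without hda15-1 1 or with a mean of at least 5 FPKM; its adjusted p ran from 0.207 to 0.787 in the other 14 alternatives. Members present ranged from 27 to 32 in wild type and 26 to 32 in hda15-1 with other limits. The cause of these shifts was not tested. The 17 Aux/IAA genes averaging under 1 FPKM rest on few reads; with no filter, IAA16 had the lowest unadjusted p of the 14 with any value, 0.0192 (adjusted p = 0.701, limma), and none passed.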
